A study of Mus musculus with 6 samples.

Results

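The genes described here are the nuclear genes of the mitochondrial respiratory chain and ATP synthase in whole testes of control mice and of mice with a conditional knockout of Rnu11, the gene of the U11 small nuclear RNA of the minor spliceosome. Members were all genes of the deposited tables whose symbol starts with Nduf, Uqcr, Cox4 to Cox8 or Atp5, or is one of Sdha to Sdhd. Left out were 11 symbols that contain -ps. This gave 97 of 55353 genes: 39 of complex I, 8 complex I assembly factors, 4 of complex II, 8 of complex III, 21 of complex IV (with Ndufa4, Ndufa4l2 and Cox7a2l) and 17 of complex V. Testes were taken at postnatal day 14 and sequenced as stranded, rRNA-depleted total RNA, with 3 control and 3 mutant libraries. The mutants carry the Rnu11 knockout under the genotype label cKO, and the controls are labelled only as control. Which Cre line was used, in which cells Rnu11 was deleted, the strain and the controls' alleles are not stated in the labels. All values are in TPM, a level per transcript length scaled so that all RNAs of every library add up to the same total.

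The respiratory chain passes electrons from NADH (complex I) and succinate (complex II) through ubiquinone, complex III and cytochrome c to oxygen (complex IV), and the proton gradient built on the way drives ATP synthase (complex V). A few catalytic membrane subunits come from mitochondrial DNA, and all others from nuclear genes such as those described here. In the testis, Sertoli cells rely largely on glycolysis and supply lactate to spermatocytes, which depend more on respiration, and germ cells replace several cytochrome c oxidase subunits and cytochrome c with paralogs of their own.

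Promoters were read from RefSeq (GRCm38.p6), from 250 bases before to 50 bases after each gene's start, for the 76 members with an entry. They were searched on both strands for 8 short motifs, each counted whether or not it overlapped another: the NRF1 core (GCGC, any 2 bases, GCGC), the GABP (ETS) core CCGGAAG, the YY1 core AAGATGGC, the SP1 core GGGCGG, the CRE site TGACGT, the MYB core CAGTTG, the RFX site GTTGCC and the TATA box TATAAA. NRF1 and GABP are the activators best known for binding respiratory chain promoters. Shown first are the members with the highest TPM that hold an NRF1 core (Cox6a1 and Atp5g3) or a GABP core (Cox6a1 and Cox6b1), 5′ to 3′ on the gene's strand, with any of the 8 motifs in capitals.
Cox6a1, chr5:115348909-115349208 on the minus strand: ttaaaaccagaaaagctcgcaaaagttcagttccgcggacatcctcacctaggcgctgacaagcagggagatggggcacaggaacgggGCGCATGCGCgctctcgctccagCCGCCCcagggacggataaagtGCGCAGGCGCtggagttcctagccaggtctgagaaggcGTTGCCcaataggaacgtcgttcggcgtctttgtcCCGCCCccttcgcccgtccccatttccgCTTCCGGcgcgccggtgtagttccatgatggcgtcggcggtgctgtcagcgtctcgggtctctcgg
Atp5g3, chr2:73911277-73911576 on the minus strand: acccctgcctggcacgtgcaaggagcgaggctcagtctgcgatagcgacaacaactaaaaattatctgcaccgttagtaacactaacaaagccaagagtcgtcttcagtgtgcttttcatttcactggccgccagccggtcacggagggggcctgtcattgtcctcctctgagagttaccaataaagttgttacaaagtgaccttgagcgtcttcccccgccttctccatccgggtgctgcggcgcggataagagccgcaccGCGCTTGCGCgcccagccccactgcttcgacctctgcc
Cox6b1, chr7:30626065-30626364 on the minus strand: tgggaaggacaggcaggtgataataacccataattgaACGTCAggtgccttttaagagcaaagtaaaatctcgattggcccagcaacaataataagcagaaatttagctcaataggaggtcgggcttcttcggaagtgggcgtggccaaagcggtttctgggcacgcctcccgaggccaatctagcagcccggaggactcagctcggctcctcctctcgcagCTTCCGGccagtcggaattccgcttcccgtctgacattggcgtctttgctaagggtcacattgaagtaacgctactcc
The promoters of the germ cell paralogs Cox6b2 and Cox7b2 are set beside them because the largest negative differences lay in these genes and in Cox8c, which has no entry. They were chosen after their values were seen.
Cox6b2, chr7:4753045-4753344 on the minus strand: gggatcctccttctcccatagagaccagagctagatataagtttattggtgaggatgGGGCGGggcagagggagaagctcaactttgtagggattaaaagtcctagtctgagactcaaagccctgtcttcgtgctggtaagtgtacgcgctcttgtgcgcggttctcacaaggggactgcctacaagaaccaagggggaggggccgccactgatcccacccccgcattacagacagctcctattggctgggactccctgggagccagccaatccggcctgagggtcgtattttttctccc
Cox7b2, chr5:71548156-71548455 on the minus strand: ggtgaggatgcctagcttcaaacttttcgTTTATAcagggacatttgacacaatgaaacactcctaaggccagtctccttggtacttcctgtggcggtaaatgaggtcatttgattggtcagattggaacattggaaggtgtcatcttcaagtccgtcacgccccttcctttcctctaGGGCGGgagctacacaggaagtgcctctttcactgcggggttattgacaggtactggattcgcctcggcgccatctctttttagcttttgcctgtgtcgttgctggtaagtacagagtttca
The Cox6a1 window held 2 NRF1 cores, which start 162 and 117 bases before the gene's start, and a GABP core 16 bases before it. Cox6b1, the common partner of Cox6b2, held a GABP core 28 bases before its start. In Cox6b2 the only match was an SP1 core, and in Cox7b2 an SP1 core and a TATA box on the opposite strand. The promoter of Cox7b, the common partner of Cox7b2, held none of the 8.

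An NRF1 core was found in 20 of the 76 member promoters (26.3%), against 6.43% of all 27025 promoters of the same length and 13.9% of the 10271 promoters of tested protein-coding genes. The GABP core was in 18 members (23.7%, against 9.12% and 18.4%) and the YY1 core in 10 (13.2%, against 2.88% and 4.65%). The SP1 core was in 35 members (46.1%), between the 35.9% of all promoters and the 65.0% of tested coding genes. Median GC content was 58.5% in members and 52.7% in all promoters, and the letters fixed in the NRF1 and SP1 motifs are all G or C. Members with an NRF1 core had a median log2 difference between mutants and controls of 0.11 and those without had 0.11. For the GABP core these medians were 0.12 and 0.11, and for the YY1 core 0.01 (10 genes) and 0.12 (65 genes).

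Rnu11 itself was at 614, 576 and 550 TPM in the controls and 196, 393 and 203 in the mutants (log2 difference -1.21, SE 0.26, limma adjusted p = 0.294). Between 27.1% and 32.2% of each library's TPM lay in nuclear protein-coding genes, the lowest share in a control and the highest in mutant 2, with overlap between the groups. Across all 17959 genes tested, 66.4% had a positive log2 difference and the median was 0.09. Scaling libraries by median ratios moved that median to -0.00, and scaling to nuclear protein-coding TPM moved it to -0.01. Control 2 stood apart from the other controls in pachytene markers: the summed TPM of 8 of them was 132, 53.0 and 124 in controls 1, 2 and 3 and 47.9, 54.1 and 70.0 in the mutants. It also had the highest Leydig marker sum of the controls (117, 226 and 130 TPM). Its meiotic spermatocyte sum of 457 TPM lay above all mutants. The tissue label fits the Sertoli, Leydig, spermatogonial and meiotic markers, all detected in every library, while 5 spermatid markers summed to between 0.43 and 1.03 TPM.

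No respiratory chain gene passed the test. Of the 97 members, 93 reached a mean of 1 TPM over the 6 libraries and were tested, none of them by reaching it in 1 group alone. The 4 others were Ndufa11b, Cox4i2, Cox6a2 and Cox8b. limma, on log2(TPM + 1) with adjustment over all genes, called 0 members at an adjusted p under 0.05 (smallest 0.294), against 0.0278% of all genes, which are 5 genes, none of them a nuclear protein-coding gene. At an unadjusted p under 0.05 there were 18 members higher in the mutants, against 12.1% of all genes, and 3 lower, against 3.98%.

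The members lay slightly higher in the mutants on the deposited scale, as most genes did. Of the 93 tested, 65 had a positive and 28 a negative log2 difference, with a median of 0.11, against 0.10 for the 12935 nuclear protein-coding genes tested. All 3 mutants lay above all 3 controls in 21 members (22.6%, against 14.5% of all genes) and below them in 4 (4.30%, against 5.77%). Among nuclear protein-coding genes these shares were 16.4% and 5.96%. The 4 lower members were Ndufb6, Ndufv2, Cox7b2 and Atp5pb. These counts depend on the libraries: without mutant 3 there were 36 higher (all genes, 37.7%) and 6 lower (8.53%), and without control 2 there were 31 higher (29.8%) and 10 lower (12.3%). After median-ratio scaling the members split 46 positive to 47 negative with a median of -0.01, and the groups were apart in 11 higher (all genes, 11.1%) and 7 lower (11.2%). After protein-coding scaling 45 of 96 were positive, with 11 members apart in each direction (all genes, 9.82% higher and 10.6% lower). The 9 members apart and higher on all 3 scales were Atp5g1, Cox6c2, Cox8a, Ndufa4, Ndufa8, Ndufb4, Ndufc2, Uqcr10 and Uqcrq, and the 2 lower were Atp5pb and Cox7b2. The share of all genes apart on all 3 scales was not counted, so these numbers have no background. The values of Cox6c2 and Ndufb4 are uncertain because each has a near-identical or identical copy.

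**Figure D1:**
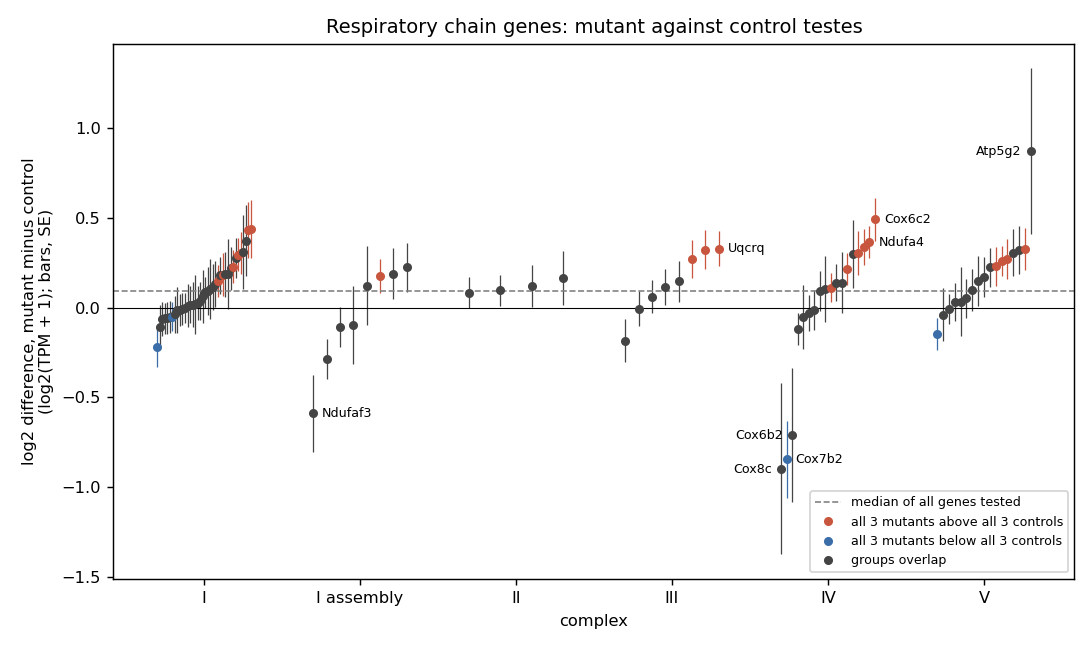
Log2 difference (mutant minus control, on log2(TPM + 1)) of the 93 tested members, by complex, with standard errors; colour marks members whose 3 mutant and 3 control libraries do not overlap, and the dashed line is the median of all genes tested (0.09). Most members lie within 0.5 of zero, with Cox8c, Cox7b2 and Cox6b2 below -0.7 and Atp5g2 at 0.87 with a wide error.

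Summed over all members, the controls held 5388, 5240 and 5127 TPM and the mutants 5545, 6062 and 5443. The mutants were higher in all 3 libraries by this sum, and mutant 2 the highest. As a share of nuclear protein-coding TPM the sum was 1.88% ± 0.09 (SD, n = 3) in controls and 1.88% ± 0.06 in mutants, and the groups overlapped. Complex I took 0.621% ± 0.033 of coding TPM in controls and 0.608% ± 0.019 in mutants. Complex III took 0.204% ± 0.010 and 0.214% ± 0.010, and complex V 0.515% ± 0.034 and 0.528% ± 0.015. The share of all members together in coding RNA therefore differed by less than the spread between libraries. That of complex III differed by about as much as the spread.

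**Figure D2:**
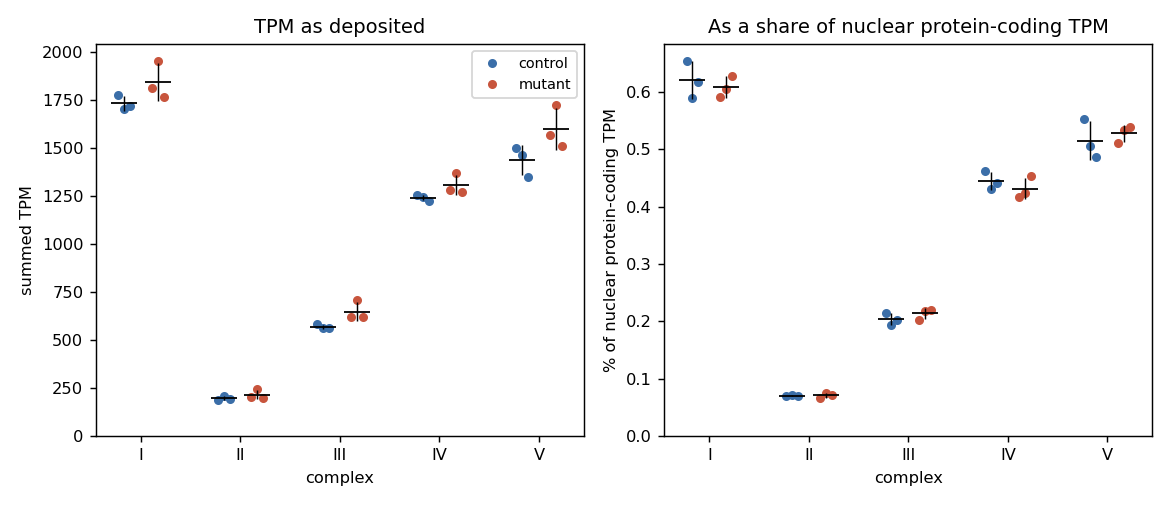
Summed TPM of the members of each complex (left) and the same as a percentage of nuclear protein-coding TPM (right); points are libraries, horizontal marks are means and bars are SD (n = 3 per group). On the left the mutants average higher in each complex, and on the right the groups overlap in all 5.

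Complex I accepts electrons from NADH and is the largest of the complexes. Its 38 tested members had a median log2 difference of 0.07, 26 positive and 12 negative. After median-ratio scaling the difference of its summed TPM was -0.02.

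The complex I members with the smallest p-values were accessory subunits that surround the catalytic core. Ndufa6 was at 64.6, 66.6 and 74.6 TPM in the controls and 83.3, 82.1 and 87.3 in the mutants (log2 difference 0.30, SE 0.09, limma adjusted p = 0.294). Ndufc2, a subunit of the membrane arm, was at 21.7, 21.3 and 22.4 TPM in the controls and 33.6, 34.1 and 22.9 in the mutants (0.43, SE 0.16, adjusted p = 0.294 by limma). The groups of both genes did not overlap on the deposited scale, but those of Ndufa6 overlapped under both scalings. In Ndufc2 they stayed apart on each scale, although mutant 3 lay next to the controls. Ndufb4 was at 18.6, 19.0 and 22.1 TPM in the controls and 25.0, 35.0 and 23.1 in the mutants (0.44, SE 0.16, or 0.27 without mutant 2). Its value is uncertain, because the annotated retrocopy Ndufb4c is identical to it over all 390 nt of the copy. The TPM listed for Ndufb4c was the larger, at 103, 90.6 and 68.5 in controls and 94.0, 91.7 and 77.0 in mutants. Summed over both, controls held 121, 110 and 90.6 TPM and mutants 119, 127 and 100.2, which overlap. Ndufc1 had the highest level of complex I, with 133, 120 and 109 TPM in controls and 136, 143 and 109 in mutants, and its difference of 0.09 turned to -0.02 under either scaling. At the other end, Ndufb6 was at 36.5, 29.1 and 29.5 TPM in controls and 27.1, 25.7 and 28.2 in mutants (-0.22, SE 0.11). Of the other annotated retrocopies in the complex, Ndufs6b, 96.6% identical to Ndufs6, differed by -0.01, and Ndufa11b, 94.8% identical to Ndufa11, was between 0.30 and 1.23 TPM and was not tested.

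The 8 assembly factors, which help build complex I and do not stay in it, were the least abundant group, with mean levels between 2.93 and 18.5 TPM. Of these, 4 were positive and 4 negative. The 2 with an unadjusted p under 0.05 by limma were both lower in the mutants. Of all genes, 12.1% were higher and 3.98% lower at that cutoff. Ndufaf3, which acts in an early assembly intermediate, was at 25.3, 14.3 and 23.3 TPM in controls and 11.4, 13.6 and 14.8 in mutants (log2 difference -0.59, SE 0.21, limma adjusted p = 0.294). Control 2 lay among the mutants, the same library that is low in pachytene markers. Without it the difference was -0.83, with a limma adjusted p of 0.079 (range over its alternatives 0.079 to 0.624). The larger difference follows from leaving out a control that lay among the mutants. Ndufaf7, a methyltransferase needed for complex I assembly, was at 13.2, 11.5 and 13.2 TPM in controls and 9.38, 9.57 and 11.6 in mutants (-0.29, SE 0.11), where mutant 3 just overlapped control 2. Ndufaf1 had the highest level of the group and was higher in each mutant, at 18.3, 17.7 and 16.2 TPM against 21.4, 19.0 and 18.8 (0.17, SE 0.09). Its groups were apart on the deposited scale only.

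Complex II feeds electrons from the tricarboxylic acid cycle and has no mitochondrially encoded subunit. All 4 of its genes had small positive differences and overlapping groups on the deposited scale. Sdha, the flavoprotein that oxidises succinate, was at 71.3, 82.5 and 74.5 TPM in controls and 74.9, 94.1 and 80.2 in mutants (0.12, SE 0.12, or 0.03 without mutant 2). The iron-sulphur subunit Sdhb was at 25.4, 26.4 and 23.5 TPM in controls and 25.4, 27.7 and 26.9 in mutants (0.08, SE 0.09). The membrane anchors, which hold the ubiquinone site, gave 0.17 (SE 0.15) for Sdhc and 0.10 (SE 0.09) for Sdhd. Sdhc was at 43.9, 50.4 and 46.4 TPM in controls and 50.8, 65.0 and 44.1 in mutants, and its difference was 0.02 without mutant 2 and 0.29 without mutant 3. Sdhd was at 47.6, 46.9 and 47.5 TPM in controls and 50.3, 54.7 and 47.3 in mutants. The signs of Sdhb and Sdhd turned negative under both scalings (-0.03 and -0.01 by median ratios), and limma adjusted p-values were 0.564 to 0.621.

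Complex III passes electrons from ubiquinol to cytochrome c, and its 8 genes divided by the size of the subunit. The 5 small subunits (Uqcrq, Uqcr10, Uqcr11, Uqcrb and Uqcrh) all had positive differences, between 0.11 and 0.33 with a median of 0.27. The median was 0.16 after either scaling, although Uqcrh was at -0.00 after protein-coding scaling. The core proteins Uqcrc1 and Uqcrc2 and the Rieske iron-sulphur protein Uqcrfs1 lay between -0.18 and 0.06, with a median of -0.00 (-0.12 by either scaling). This division was seen in the values first, and the difference between its parts was not tested. Uqcrq was at 75.0, 78.6 and 88.5 TPM in controls and 99.0, 107 and 98.8 in mutants (log2 difference 0.33, SE 0.10, limma adjusted p = 0.294). Uqcr10 was at 86.7, 86.4 and 75.9 TPM in controls and 99.2, 117 and 97.1 in mutants (0.32, SE 0.11). Both stayed above all controls under each scaling. For Uqcr11, with 117, 95.1 and 102 TPM in controls and 119, 132 and 127 in mutants (0.27, SE 0.11), the groups were apart only on the deposited scale. Uqcrh, the hinge protein that helps cytochrome c bind, had the highest level of the complex, at 104, 116 and 113 TPM in controls and 114, 133 and 114 in mutants (0.11, SE 0.10). Over all complexes, members with transcripts under 600 nt had a median difference of 0.11 (35 genes), against 0.12 for the 215 other coding genes of that length. Positive differences were found in 80.0% of these members and 67.4% of those other genes. Complex III alone was not compared by length.

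Complex IV held both the smallest p-values and the largest negative differences. Ndufa4, named for complex I but now counted with complex IV, was at 65.2, 64.8 and 58.5 TPM in controls and 81.4, 84.1 and 78.2 in mutants (log2 difference 0.37, SE 0.09, limma adjusted p = 0.294). Cox8a, a small structural subunit, was at 108, 121 and 105 TPM in controls and 138, 150.4 and 135 in mutants (0.34, SE 0.10, adjusted p = 0.294 by limma). In both genes all 3 mutants lay above all 3 controls on each of the 3 scales. Cox6c2, annotated as a processed pseudogene and 97.0% identical to Cox6c over its 231 nt, was at 9.07, 11.5 and 9.09 TPM in controls and 13.2, 15.6 and 14.0 in mutants (0.49, SE 0.12). Its value is uncertain for that reason. Cox6c was at 148, 162 and 160.1 TPM in controls and 180.1, 178 and 188 in mutants (0.21, SE 0.09). Summed, the pair gave 167 ± 8.5 TPM in controls and 196 ± 4.7 in mutants (SD, n = 3), and the groups of the sum did not overlap on the deposited scale. Cox6a1 had the highest level of the complex, at 196, 226 and 187 TPM in controls and 230.1, 218 and 202 in mutants. Its difference of 0.09 (SE 0.11) became -0.02 after either scaling. Of the 18 tested members 11 were positive and 7 negative, with a median of 0.11. Cox5a, Cox5b, Cox7a2l and Cox7c lay between -0.01 (Cox5b) and 0.14 (Cox7a2l), and Cox7c was apart and higher on the deposited scale only.

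The largest negative differences of the whole set lay in the germ cell forms of 3 oxidase subunits. Cox7b2 was at 45.2, 26.3 and 43.7 TPM in controls and 18.1, 19.7 and 23.6 in mutants. The groups did not overlap, and control 2 was the lowest control (log2 difference -0.85, SE 0.22, limma adjusted p = 0.294). Cox6b2 was at 107, 39.1 and 94.6 TPM in controls and 38.0, 40.3 and 57.6 in mutants. Here control 2 lay inside the range of the mutants, and the other controls lay well above it (-0.71, SE 0.38, limma adjusted p = 0.360). Cox8c (chr12:102899316-102900526 on the plus strand of GRCm38) was at 25.0, 7.17 and 24.2 TPM in controls and 5.99, 7.59 and 12.7 in mutants, again with control 2 among the mutants (-0.90, SE 0.48, limma adjusted p = 0.360). Under each scaling all 3 stayed lower in the mutants, between -0.82 and -1.06.

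Without control 2 the differences were -1.09 for Cox7b2, -1.16 for Cox6b2 and -1.45 for Cox8c, with limma adjusted p-values of 0.061, 0.081 and 0.092 and no overlap between groups. Over all alternatives these p-values ranged up to 0.624, 0.663 and 0.661. In the comparison without control 2, 12.3% of all genes were apart and lower. This library was singled out for its low values in these genes. The larger differences, and the lack of overlap in Cox6b2 and Cox8c, follow from leaving it out. Without control 1 the Cox6b2 difference was -0.44 and that of Cox8c -0.61, with limma adjusted p-values of 0.663 and 0.656. The size of these differences therefore rests on which control libraries are taken.

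The common partners of these genes had positive differences, although that of Cox7b was -0.02 without mutant 2. Cox6b1 was at 119, 194 and 146 TPM in controls and 177, 209 and 169 in mutants (0.30, SE 0.19). Its difference was 0.13 without control 1 and 0.48 without control 2. Cox7b was at 12.6, 13.5 and 10.1 against 11.6, 16.98 and 11.9 (0.14, SE 0.17), and the values of Cox8a are given with the other common subunits. Cox6b2 made up 47.4%, 16.8% and 39.3% of the TPM of its pair in controls and 17.7%, 16.1% and 25.4% in mutants. Cox7b2 was the main form of its pair in every library, at 78.2%, 66.0% and 81.2% in controls and 60.9%, 53.7% and 66.4% in mutants. Cox8c made up 18.8%, 5.58% and 18.6% of its pair in controls and 4.16%, 4.805% and 8.61% in mutants. In all 3 pairs the share was lower on average in the mutants, by 14.8, 14.8 and 8.50 percentage points, and control 2 overlapped them. These shares do not depend on how libraries are scaled, and an exact permutation test of 3 libraries against 3 cannot give a p under 0.1.

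Markers of meiotic germ cells were also lower in the mutants, while those of spermatogonia were mixed. The summed TPM of 10 meiotic spermatocyte markers was 544, 457 and 555 in controls and 337, 314 and 394 in mutants, with all 10 lower in the mutants and 9 of them without overlap, none called by limma (adjusted p 0.054 to 0.299, 10 at an unadjusted p under 0.05). All 7 tested pachytene markers were lower too, with limma adjusted p-values of 0.294 to 0.491 and 3 at an unadjusted p under 0.05. Of 7 spermatogonial markers 5 were lower, 4 of them without overlap (Kit, Stra8, Dmrtb1 and Sohlh2), and 2 were higher (Zbtb16 at 0.12, and Gfra1 at 0.17 without overlap), with sums of 197, 206 and 192 TPM in controls and 183, 180.4 and 177 in mutants. Sertoli and Leydig markers went the other way: 8 of 8 Sertoli markers were higher in the mutants (sums of 1317, 1437 and 1330 TPM against 1978, 2281 and 1727), and 6 of 6 Leydig markers (117, 226 and 130 against 245, 365 and 237). The 4 peritubular myoid markers split 2 higher to 2 lower with overlap in each (median 0.06, sums of 165, 201 and 230.0 TPM against 237, 223 and 197). All 3 tested macrophage and all 3 endothelial markers were higher. So were the 2 tested erythroid markers, without overlap (Hbb-bs at 1.13 and Alas2 at 0.49). limma called none of these either. At an unadjusted p under 0.05 by limma, 3 spermatogonial markers were lower. At the same cutoff 7 Sertoli, 5 Leydig, 0 myoid, 1 macrophage, 0 endothelial and 2 erythroid markers were higher. In whole testis RNA, fewer cells of a type and less RNA per cell cannot be told apart, and the part of cell composition in the values of the respiratory chain was not tested.

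**Figure D3:**
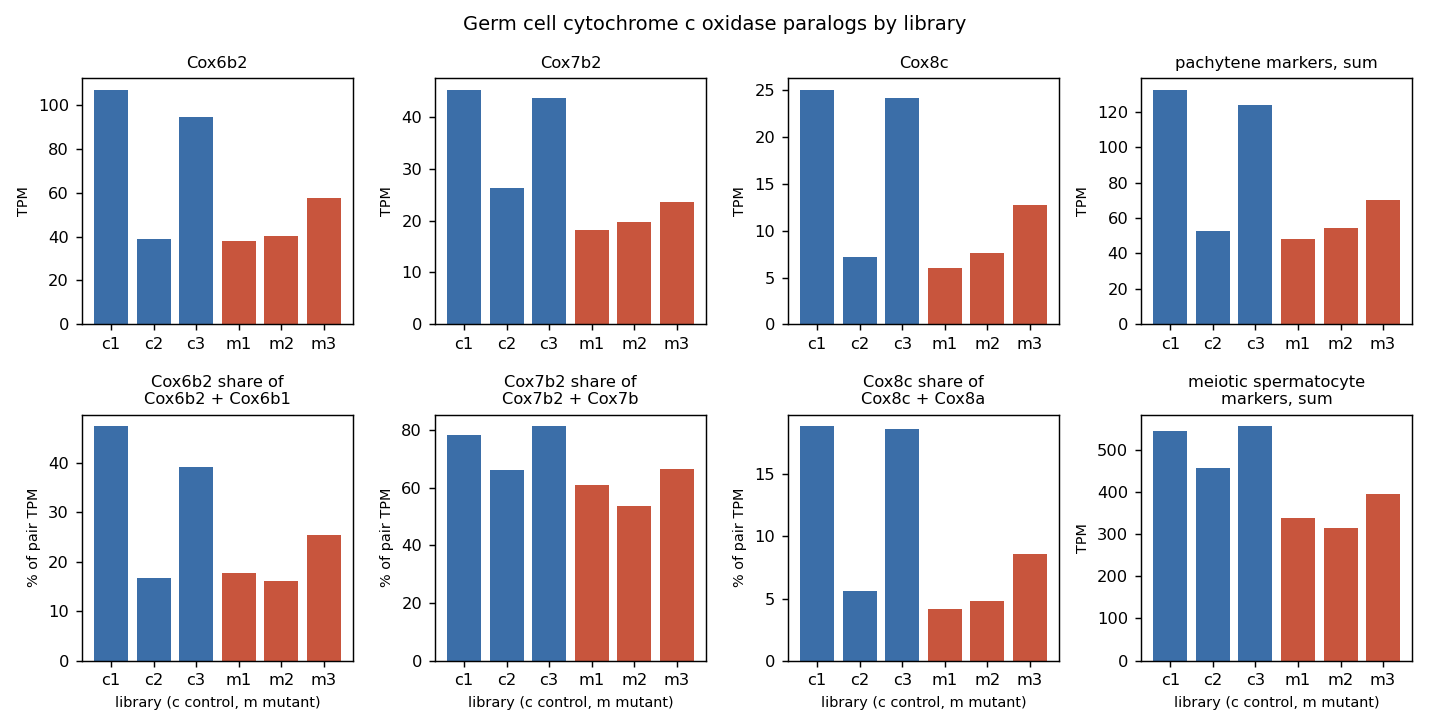
TPM of Cox6b2, Cox7b2 and Cox8c (top) and their share of the TPM of their pair (bottom) in each library, beside the summed TPM of pachytene (top right) and meiotic spermatocyte markers (bottom right); blue bars are controls and red bars mutants. Control 2 is the lowest control in all 3 genes and in the pachytene sum, where it is at 53.0 TPM, and it lies above the mutants in the meiotic sum, at 457 TPM.

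Other paralogs are known from muscle and further somatic tissues. Cox7a1, the heart and muscle form, was at 12.9, 9.63 and 11.3 TPM in controls and 14.3, 15.0 and 12.9 in mutants (0.30, SE 0.12, limma adjusted p = 0.303). Its lowest mutant lay just above its highest control, and the groups were apart on the deposited scale only. It made up 12.0%, 9.83% and 11.4% of the pair with Cox7a2 in controls and 14.9%, 14.5% and 14.0% in mutants, without overlap. Cox7a2 itself was at 94.4, 88.3 and 87.9 TPM against 81.5, 88.5 and 79.1 (-0.12, SE 0.09). Of 6 brown fat or muscle markers only Cidea was above 1 TPM (5.37 to 8.51 TPM in controls, 9.54 to 10.4 in mutants), while Ucp1, Ckm, Acta1, Myh4 and Adipoq were near 0. Cox4i1, the common form of subunit 4, was at 130, 113 and 124 TPM in controls and 113, 130 and 116 in mutants (-0.03, SE 0.10). The lung and hypoxia form Cox4i2 stood at 0.55 to 1.01 TPM and under 1% of that pair in each library. Cox6a2 and Cox8b, the striated muscle forms, stayed below 1 TPM in all libraries. Ndufa4l2, a hypoxia-induced relative of Ndufa4, was at 1.12, 1.29 and 1.10 TPM in controls and 1.60, 0.998 and 0.760 in mutants (-0.05, SE 0.18).

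Complex V makes ATP, and its 17 genes had the highest median difference of the complexes, 0.17, with 14 positive. The log2 difference of its summed TPM was 0.15 as deposited and 0.04 after median-ratio scaling. Atp5b, the catalytic beta subunit and the most abundant member of all, was at 319, 258 and 233 TPM in controls and 297, 320 and 276 in mutants (0.15, SE 0.14). This difference was 0.28 without control 1, 0.05 without control 3, 0.04 when scaled by median ratios and 0.03 when scaled to coding TPM. Atp5j2, subunit f of the membrane part, was at 40.9, 41.5 and 43.9 TPM in controls and 48.7, 51.0 and 52.3 in mutants (log2 difference 0.26, SE 0.08, limma adjusted p = 0.294). Atp5h, subunit d of the peripheral stalk, was at 90.4, 107 and 85.3 TPM in controls and 108, 114 and 119 in mutants (0.27, SE 0.11). In both genes the groups were apart on the deposited scale only. Atp5pb, subunit b of the same stalk, was the most negative of the 3 negative genes of the complex, with 99.7, 113 and 105 TPM in controls and 98.2, 91.5 and 96.3 in mutants (-0.15, SE 0.09), apart and lower on each scale. Among the other subunits, Atp5c1 (0.31), Atp5md (0.32) and Atp5j (0.23) were above the median, and Atp5a1 (0.10), Atp5d (-0.01), Atp5e (0.05), Atp5k (-0.04), Atp5l (0.03), Atp5mpl (0.03) and Atp5o (0.17) were at or below it.

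The ring that turns with proton flow is built of subunit c, for which 3 genes encode the same mature protein. Atp5g1 was at 38.1, 42.8 and 36.0 TPM in controls and 53.1, 51.8 and 42.8 in mutants (0.33, SE 0.12, limma adjusted p = 0.294), with the lowest mutant only just above the highest control. Atp5g3, the most abundant of them, was at 96.4, 113 and 101 TPM in controls and 124, 130.1 and 109.9 in mutants (0.22, SE 0.11). Atp5g2 varied widely among libraries of 1 group, with 8.27, 12.4 and 19.8 TPM in controls and 12.7, 44.4 and 24.4 in mutants (0.87, SE 0.46), and its groups overlapped. It was named after its values were seen. The median of the 3 was 0.33, or 0.22 after either scaling.

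**Figure D4:**
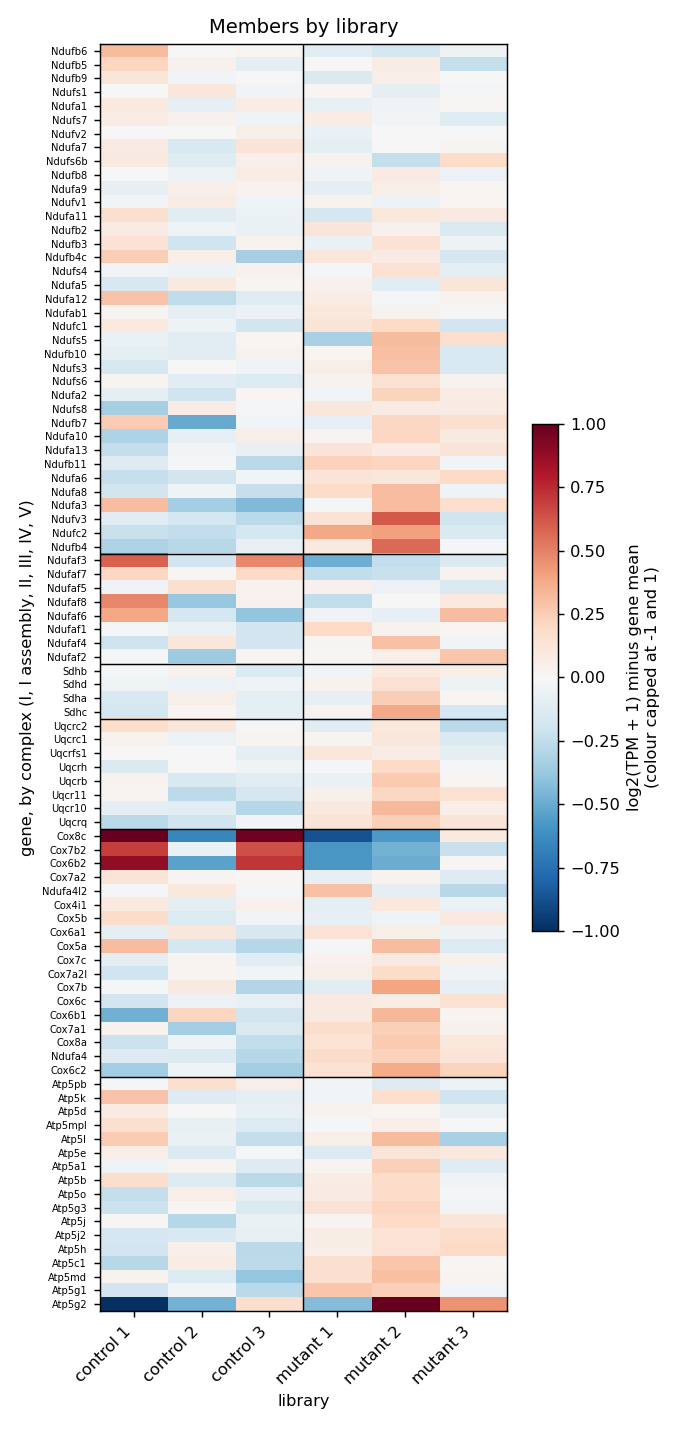
Level of the tested members, 1 left out, in each library, as log2(TPM + 1) minus the gene's mean over the 6 libraries; rows are ordered by complex and then by log2 difference. Controls 1 and 3 are above control 2 in Cox8c, Cox7b2 and Cox6b2, and mutant 2 is the highest library in many rows, as it is in the summed TPM (6062).

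Isoforms were tested because the study disturbs splicing. Of 434 member isoforms listed, 305 were tested and limma called 0 (smallest adjusted p 0.385), against 0.0136% of all isoforms. At an unadjusted p under 0.05 there were 18 higher and 8 lower, against 8.06% and 3.18% of all isoforms. Of 193 isoform shares in 68 member genes limma called 0, against 0.0112%, and 7 had an unadjusted p under 0.05 (3.63%, against 5.78% of all shares). The share of member TPM in isoforms annotated as retained introns was 11.8% ± 0.4 (SD, n = 3) in controls and 11.4% ± 0.7 in mutants, against 17.1% and 16.8% over all nuclear protein-coding genes. Minor introns, those that the U11 RNA helps to recognise, were looked for by sequence in the 59 of 625 member introns that another transcript covers (9.44%), and 0 were found. The other introns could not be read.

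The isoform with the smallest p was Ndufaf3-203, at 6.90, 4.50 and 5.88 TPM in controls and 2.97, 2.84 and 2.97 in mutants (log2 difference -0.77, SE 0.15, limma adjusted p = 0.385). Next came Ndufaf7-204, a short transcript of 2 exons annotated as a retained intron, at 2.10, 1.65 and 2.16 TPM in controls and 0.753, 0.590 and 1.15 in mutants. It made up 15.9%, 14.4% and 16.4% of Ndufaf7 in controls and 8.03%, 6.16% and 9.89% in mutants (limma adjusted p = 0.730 for the share). Ndufb5-202, a protein-coding form, made up 22.7%, 19.1% and 15.9% of Ndufb5 in controls and 11.1%, 5.76% and 11.4% in mutants (limma adjusted p = 0.856). Ndufv1-201 averaged 39.2% ± 2.6 in controls and 31.7% ± 0.9 in mutants (SD, n = 3). Atp5mpl-201 averaged 91.6% ± 0.6 and 94.1% ± 1.0, and the retained-intron form Atp5k-203 averaged 4.60% ± 1.12 and 6.995% ± 0.850. In each of these 5 shares the groups did not overlap, which choosing the smallest p-values of 193 favours, and none passed the test. How many of all shares were apart was not counted. The remaining isoforms that the naming rule takes, Cox7b2-201 and Cox6c2-201, are the only ones listed for their genes.

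**Figure D5:**
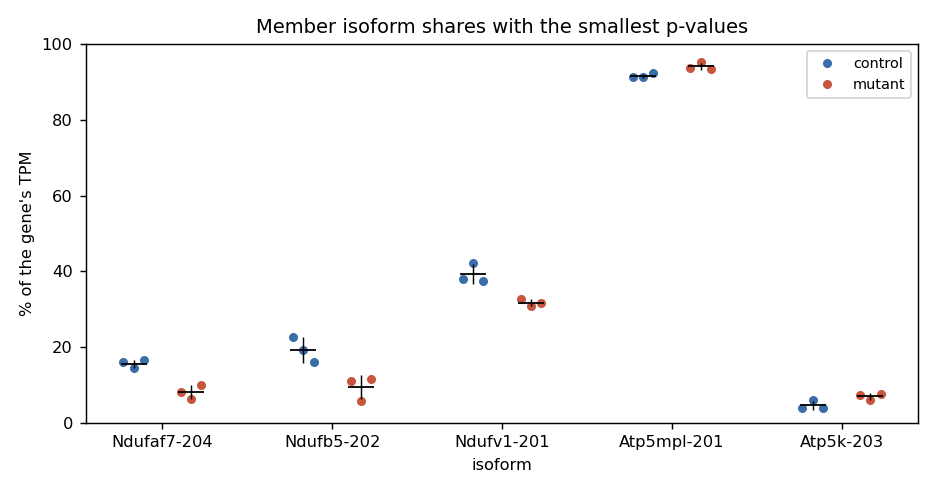
Share of the gene's TPM held by the 5 member isoforms whose shares had the smallest p-values; points are libraries, horizontal marks are means and bars are SD (n = 3 per group). The groups are apart in all 5, which the choice by p-value favours, and none passed the test. Ndufaf7-204 is at 15.6% in controls and 8.03% in mutants on average.

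Genes around the chain were taken from lists of its partners. Of cytochrome c, the carrier between complexes III and IV, the somatic form Cycs was at 43.4, 52.0 and 39.4 TPM in controls and 64.9, 67.6 and 53.8 in mutants (0.46, SE 0.14). The testis form Cyct was at 17.2, 8.03 and 15.5 TPM in controls and 6.35, 6.31 and 8.91 in mutants (-0.78, SE 0.28), with control 2 again among the mutants. Cyct is also among the pachytene markers, so it is already counted in their sum. limma adjusted p-values were 0.294 for both forms. The 13 protein-coding genes of mitochondrial DNA, whose products join these complexes, split 8 positive to 5 negative with a median of 0.11 and 0 called by limma (0 at an unadjusted p under 0.05). Their sums were 21230, 19078 and 15271 TPM in controls and 18651, 20855 and 18812 in mutants.

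Of 37 other assembly factors, 23 were positive and 14 negative (median 0.07), with Cox20 at 0.35 and Coa3 at -0.50. Of 9 tested regulators of mitochondrial genes, 6 were positive and 3 negative (median 0.03), led by Esrra at 0.22 and Tfb1m at -0.11. Of 13 tricarboxylic acid cycle genes, 11 were positive (median 0.12), led by Suclg1 at 0.53 and Idh3g at 0.28. Of 11 genes of mitochondrial import and outer membrane channels, 9 were positive (median 0.17), yet the import receptors Tomm20 and Tomm22 differed in sign, at 0.44 and -0.41. Glycolysis had the highest median of these lists, 0.30, with 14 of 15 tested genes positive and the germ cell form Ldhc at -0.86. Ldhc, too, is among the pachytene markers and counted in their sum. Aldoa was at 198 ± 45 TPM in controls and 286 ± 37 in mutants (0.54), and Pkm at 107 ± 4.5 and 134 ± 15 (SD, n = 3; 0.31). limma called 0 genes of these lists, with adjusted p-values of 0.294 or more. At an unadjusted p under 0.05 there were 1 higher and 1 lower of the assembly factors, 0 regulators, 3 higher of the cycle genes, 2 higher and 1 lower of the import genes, and 5 higher of the glycolysis genes.

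In the authors' deposited table of log2 fold changes, which was made from the same libraries, 65 of the 97 members were above 0, 27 below 0 and 5 at 0. These counts include the members that were not tested here. Of the 17959 genes tested here, 60.3% were above 0 and 30.1% below in the authors' deposited table.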

How the data were processed

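The authors deposited gene and isoform TPM estimates for each of the 6 libraries, after alignment with HISAT2 (build GRCm38) according to the submitters' processing notes. What tool made the TPM values is not given in the sources used here, and because TPM holds no read number, depth is unknown. A table of log2 fold changes deposited by the authors served for description only. The series speaks of mice, and 1 library was counted as 1 mouse.

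limma 3.58.1 (R 4.3.3; lmFit, then eBayes with trend) was run two-sided on log2(TPM + 1) of all 6 libraries, for the genes whose mean reached 1 TPM, with Benjamini-Hochberg adjustment over all of them and 0.05 as the threshold. Differences on this log2 scale are too small for genes near 1 TPM. The same was done for isoforms. The share of an isoform was tested, with no trend, as the log2 ratio of its TPM to that of the other isoforms of its gene, 0.1 TPM being added to each, in genes from 5 TPM and for shares of 5% to 95%. The gene fit was tested on simulated data. With 3 libraries per group, a gene that is not called may still differ.

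Gene type and position came from GENCODE M21 or else RefSeq (54386 of 55353 symbols matched), and identity of a retrocopy to its parent from GENCODE transcripts. Alternatives were other pseudocounts, filters, scalings (median ratios, nuclear protein-coding TPM), no trend, the replicate block, and leaving out each library.

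The members and lists were chosen with earlier results of these data known. Named are, per complex and for its assembly factors, the 3 genes of smallest p and the one of highest level, all tissue paralogs with partners, the Sdh genes, the 5 isoforms and 5 shares of smallest p, and the 2 genes of smallest p in each other list. Ndufb6, Ndufb4c, Cox6c, Atp5pb, Atp5g2, Atp5g3, Ldhc and the divisions of complexes III and V were added after values were seen, and a few other members are named to complete a complex. For 1 member no result of its own is reported here.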

Additional observations from a re-analysis of the deposited data

How the results depend on the processing

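No respiratory chain gene, isoform or isoform share was called by limma under any alternative run. Over all genes the number called moved from 5 to 8 with a pseudocount of 0.1 TPM, 0 with no filter, 3 with a filter of 5 TPM, 3 with median-ratio scaling and 3 without trend, and to 4 to 9 when 1 library was left out (9 without control 3). Isoforms called moved from 6 to 11 with a pseudocount of 0.1 TPM and to 3 to 11 with 1 library left out (11 without control 1, 10 without control 2, 10 without mutant 2 and 3 without mutant 3), and shares from 4 to between 1 and 10 (2 without control 1, 1 without control 2 and 10 without mutant 1).

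The members' median log2 difference of 0.11 became -0.0065 with median-ratio scaling and -0.010 with protein-coding scaling, and ranged from 0.044 (without mutant 2) to 0.14 with 1 library left out. With median-ratio scaling the log2 differences of summed TPM became -0.00066 for all members, -0.025 for complex I, 0.074 for complex III, -0.040 for complex IV and 0.041 for complex V. These scalings differ from the deposited one by construction.

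Of 447 alternative values for 32 named genes, 434 kept their direction and none was called, the lowest limma adjusted p being 0.061 (Cox7b2 without control 2; range 0.061 to 0.624 with 1 library left out). The 13 that changed sign were small. With median-ratio and protein-coding scaling these were Cox6a1 (-0.018, -0.021), Ndufc1 (-0.019, -0.022), Sdhb (-0.025, -0.029) and Sdhd (-0.015, -0.018), and with the latter Uqcrh (-0.00087). With 1 library left out, Cox4i1 ranged from -0.089 to 0.012 (0.012 without control 1 and 0.0084 without mutant 1), Cox7b from -0.025 (without mutant 2) to 0.23 and Ndufa4l2 from -0.21 to 0.074 (without mutant 3). The cause was not tested.

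Same-numbered controls and mutants had deviations correlated at -0.07, 0.03 and 0.08, within the range of differently numbered ones (-0.16 to 0.12). With 3 libraries per group this cannot show whether the replicate numbers pair the libraries. With the replicate number as a block, 0 genes, 0 isoforms and 0 isoform shares were called over all features, and 0 members.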
